A study of Homo sapiens with 9 samples.

Results

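The filaggrin-type S100-fused proteins are a family encoded side by side in the epidermal differentiation complex of chromosome 1. They were followed here through their 6 genes, FLG, FLG2, HRNR, RPTN, CRNN and TCHH, out of 24672 genes measured. The genes were chosen by symbol, with no measured value in the rule, but with earlier results of these data known. All 6 had a row in each of the 9 deposited tables. Each protein joins a calcium-binding S100-type domain at its amino end to a long stretch of repeats. Filaggrin is stored as a large precursor in keratohyalin granules of stratified squamous epithelium, is freed by proteases and packs keratin filaments, and is then broken down to amino acids that hold water. Its relatives are parts of the keratohyalin granule and the cornified envelope, the crosslinked protein shell of the outermost cells, and cornulin (CRNN) is a typical gene of the upper layers of the esophagus.

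The RNA came from EPC2 cells, esophageal epithelium made immortal with human telomerase reverse transcriptase, in 3 groups of 3 libraries. In the ALI control group the cells carried a non-silencing control construct (NSC) and were differentiated at the air-liquid interface (ALI). In the ALI silenced group SPINK7, which encodes an inhibitor of serine proteases, was silenced and the cells were differentiated in the same way. In the monolayer group NSC cells were left undifferentiated. ALI cells were grown on permeable supports in 0.09 mM calcium, were given 1.8 mM calcium from day 2 and air from day 7, and were harvested on day 14. The keratinocyte serum-free medium of all groups held EGF at 1 ng/mL and pituitary extract at 50 ug/mL. The labels describe 1 silenced population and no other silencing construct, so loss of SPINK7 and other effects of the construct cannot be told apart. Nothing in them states that the 3 libraries of 1 group came from separate cultures. A p-value here therefore reflects only how far these libraries differed, and that spread may be technical. In bulk RNA, fewer cells of a type and less RNA per cell cannot be told apart either.

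Libraries held 7641960 to 14009746 counts. Levels are given as CPM, counts scaled to a common library size by edgeR's TMM factors. SPINK7 itself stood at 229, 261 and 225 CPM in the ALI controls and at 20.9, 38.6 and 32.6 CPM in the silenced libraries, 12.9% of the control mean. Control library 2 and silenced library 2 stood apart from the other ALI libraries, at -78.5 and -25.5 against 14.3 to 55.03 on the second principal component, which took 14% of the variance. Where leaving them out changed a call on silencing that is given below, the value without them is given too. All 10 squamous markers were detected in every library, summing to 57570 to 124600 CPM at the ALI and 30960 to 32250 CPM in the monolayers. Of the other markers, the leukocyte list (8 genes) summed to 1.47 to 11.1 CPM in the ALI controls, 0.373 to 8.24 in the silenced and 0.202 to 0.991 in the monolayers. PTPRC was at 0 everywhere, and CD14 was highest in control library 2 (11.1 CPM) and silenced library 2 (8.24 CPM). The fibroblast list (7 genes) summed to 12.2 to 49.1, 20.7 to 45.6 and 50.1 to 185 CPM in the same order, nearly all of it COL1A1 and highest in monolayer library 1. LUM was at 0 everywhere. The endothelial list (5 genes) summed to 3.53 to 10.04, 1.75 to 2.80 and 0.404 to 0.744 CPM, mostly VWF at the ALI, and the melanocyte list (5 genes) to 2.68 to 4.16, 1.49 to 3.02 and 1.06 to 2.55 CPM. The part of these markers in the results below was not tested.

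The start regions of the 6 genes are shown as a description, because the members lie in 1 cluster and on 1 strand. Whether these regions bear on the changes below was not tested. They are the 150 bases before each RefSeq start (GRCh38.p14, minus strand of chromosome 1), 5′ to 3′. Capitals mark matches to TGANTCA, a pattern wider than the core of AP-1 sites, which has C or G in the middle, and to TATAAA, the box that positions the start of transcription.
FLG: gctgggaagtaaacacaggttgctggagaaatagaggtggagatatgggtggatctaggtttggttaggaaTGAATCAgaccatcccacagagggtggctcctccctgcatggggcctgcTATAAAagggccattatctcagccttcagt
FLG2: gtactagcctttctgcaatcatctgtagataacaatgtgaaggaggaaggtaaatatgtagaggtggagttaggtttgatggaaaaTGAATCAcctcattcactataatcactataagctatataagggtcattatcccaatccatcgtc
RPTN: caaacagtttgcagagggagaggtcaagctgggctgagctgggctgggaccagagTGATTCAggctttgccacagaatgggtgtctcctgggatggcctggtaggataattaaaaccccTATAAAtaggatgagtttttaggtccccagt
CRNN: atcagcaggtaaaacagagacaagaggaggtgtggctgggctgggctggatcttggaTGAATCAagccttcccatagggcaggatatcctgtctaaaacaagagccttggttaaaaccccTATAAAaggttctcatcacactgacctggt
HRNR: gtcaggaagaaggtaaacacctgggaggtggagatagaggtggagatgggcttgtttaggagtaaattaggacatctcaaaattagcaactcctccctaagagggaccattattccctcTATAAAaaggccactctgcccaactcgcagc
TCHH: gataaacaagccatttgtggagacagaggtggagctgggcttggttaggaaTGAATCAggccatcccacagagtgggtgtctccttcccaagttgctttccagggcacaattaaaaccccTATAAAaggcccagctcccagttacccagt

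These stretches are chr1:152325240-152325389 for FLG, chr1:152360007-152360156 for FLG2, chr1:152159229-152159378 for RPTN, chr1:152414264-152414413 for CRNN, chr1:152224194-152224343 for HRNR and chr1:152115445-152115594 for TCHH. The motifs were searched on both strands of the RefSeq windows of 300 bases, 250 before the start and 50 after it. TGANTCA was found in 5 of the 6 windows and in 7.71% of all 35116. Its first base lay at -79 in FLG, -64 in FLG2, -95 in RPTN, -93 in CRNN and -99 in TCHH, counted from the start, and HRNR held no match in its window. In all 5 the letters were TGAATCA or its reverse complement, so none has the C or G of the AP-1 core. TGAATCA is a pattern chosen after the sequences had been seen, which 2.98% of all windows hold. TATAAA was found in 5 of 6 windows, all but that of FLG2, and in 11.5% of all windows. The FLG2 stretch above holds tatataag, which a search for the exact letters TATAAA does not count. CACCC, a core of KLF sites, was in 5 of 6 windows and 59.9% of all, AGATAA, which factors such as GATA3 bind, in 3 of 6 and 10.3%, and GCGTG, a core of AHR sites, in 0 of 6 and 36.5%. FLG and TCHH shared a run of 19 bases that includes the TGAATCA match (ttggttaggaatgaatcag, in lower case throughout). CRNN and TCHH shared another run of 19 bases (ttaaaacccctataaaagg) and RPTN and TCHH one of 18, both over the TATAAA match. A match describes the letters only.

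FLG encodes filaggrin (hg19 chromosome 1, 152274651 to 152297679, minus strand, 1 deposited transcript). Its level was 287, 376 and 355 CPM in the ALI controls, 25.2, 20.5 and 34.6 CPM in the silenced libraries and 4.39, 0.607 and 1.06 CPM in the monolayers. The 3 groups did not overlap, with every silenced library below every control and above every monolayer. The control mean was 339 ± 46.2 CPM (SD, n = 3) and the silenced mean 26.8 ± 7.18 CPM (n = 3), which is 7.90% of it. The log2 fold change on silencing was -3.67 (SE 0.52, 95% interval -4.82 to -2.51, edgeR adjusted p = 0.0124, lower in 3 of 3 silenced libraries). It passed in 20 of 22 alternatives, with adjusted p from 5.17e-11 to 0.0762. It did not pass without silenced library 1 (adjusted p = 0.0762) or without silenced library 3 (0.0642).

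FLG2 encodes filaggrin 2, a close relative of filaggrin in the cornified layer (152321213 to 152332482, minus strand). The ALI controls held 399, 575 and 549 CPM, the silenced libraries 5.13, 4.39 and 10.3 CPM, and the monolayers 0.0708, 0 and 0 CPM. Control and silenced libraries lay furthest apart for this member, and the monolayers held 1 read in all. The silenced mean, 6.61 ± 3.21 CPM (SD, n = 3), was 1.30% of the control mean of 508 ± 94.95 CPM (n = 3). FLG2 had the lowest p-value of the silencing comparison among all 12806 genes tested, at -6.28 on the log2 scale (SE 0.41, 95% interval -7.19 to -5.37, edgeR adjusted p = 0.000308). It passed in 22 of 22 alternatives, at an adjusted p of at most 0.00493.

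RPTN encodes repetin, an envelope precursor with glutamine-rich repeats (152126071 to 152131704, minus strand). It stood at 349, 1792 and 508 CPM in the ALI controls, 61.7, 139 and 94.97 CPM in the silenced libraries and 0.142, 0.101 and 0 CPM in the monolayers. Control library 2 was far above the other controls, and all silenced libraries lay below all controls. The silenced mean of 98.5 ± 38.7 CPM (SD, n = 3) was 11.2% of the control mean of 883 ± 791 CPM (n = 3). The log2 fold change was -3.16 (SE 0.60, 95% interval -4.50 to -1.82, edgeR adjusted p = 0.0435), just inside the threshold, and it passed in 13 of 22 alternatives. Leaving out control library 2 gave -2.12 (adjusted p = 0.0112), and leaving out silenced library 2 as well gave -2.45 (0.00015), so the value was smaller and the call held. RPTN did not pass once control library 3 (0.0695), silenced library 1 (0.190) or silenced library 3 (0.205) was left out, nor without monolayer library 1, 2 or 3 (0.0764, 0.0793 and 0.0743). The same happened with monolayer libraries 2 and 3 summed (0.0776), with only the 2 groups compared (0.118) and with the highest row of each gene in place of the sum (0.0630).

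CRNN encodes cornulin (152381719 to 152386750, minus strand). It stood at 404, 212 and 450 CPM in the ALI controls, 38.9, 294 and 92.9 CPM in the silenced libraries and 1.203, 1.92 and 1.49 CPM in the monolayers. Silenced library 2 lay above control library 2, so the ALI groups overlapped, while the other silenced libraries lay below all controls. The means were 355 ± 127 and 142 ± 135 CPM (SD, n = 3 each). The log2 fold change of -1.32 (SE 0.60, 95% interval -2.65 to 0.01) did not pass (edgeR adjusted p = 0.549), with an adjusted p of 0.000726 to 1.0 over 22 alternatives. It passed in 2 of them, at -2.44 without silenced library 2 (adjusted p = 0.0314) and at -2.70 without both ALI libraries numbered 2 (0.000726). CD14 was at its highest in those same 2 libraries, while PTPRC, of the same leukocyte list, was at 0 in every library.

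HRNR encodes hornerin, a filaggrin-like protein of the cornified envelope (152184558 to 152196669, minus strand). Its levels were low in all groups, at 3.08, 6.81 and 5.18 CPM in the ALI controls, 4.01, 6.52 and 2.57 CPM in the silenced libraries and 3.33, 0 and 0.213 CPM in the monolayers. The ALI groups overlapped over almost their whole range, and monolayer library 1 lay among the ALI libraries. On silencing the log2 fold change was -0.19 with a 95% interval of -2.18 to 1.80 (edgeR adjusted p = 0.960). That interval is wide enough to hold a several-fold change in either direction. The sign turned when control library 2 (0.09) or silenced library 3 (0.07) was left out. HRNR passed in 0 of 21 alternatives in that comparison and could not be tested under the stricter filter.

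TCHH encodes trichohyalin, best known from the inner root sheath of hair and the tongue (152078793 to 152086556, minus strand). It was close to undetected, with 1, 0 and 0 counts in the ALI controls, 3, 5 and 2 in the silenced libraries and 5, 2 and 0 in the monolayers. It did not pass the filter on low counts, so 5 of the 6 members were tested. The summed silenced against control ratio was 7.35 with a counting interval of 1.05 to 319, resting on 10 counts against 1. TCHHL1, a further S100-fused gene of the cluster (152056620 to 152061540), had 1, 13 and 0 counts in the ALI controls, 2, 13 and 1 in the silenced libraries and 0 in each monolayer. Most of its reads thus came from the ALI libraries numbered 2 in both arms. FLG-AS1, the antisense gene at FLG, was not analysed here, and no other deposited row overlapped a member.

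**Figure D1:**
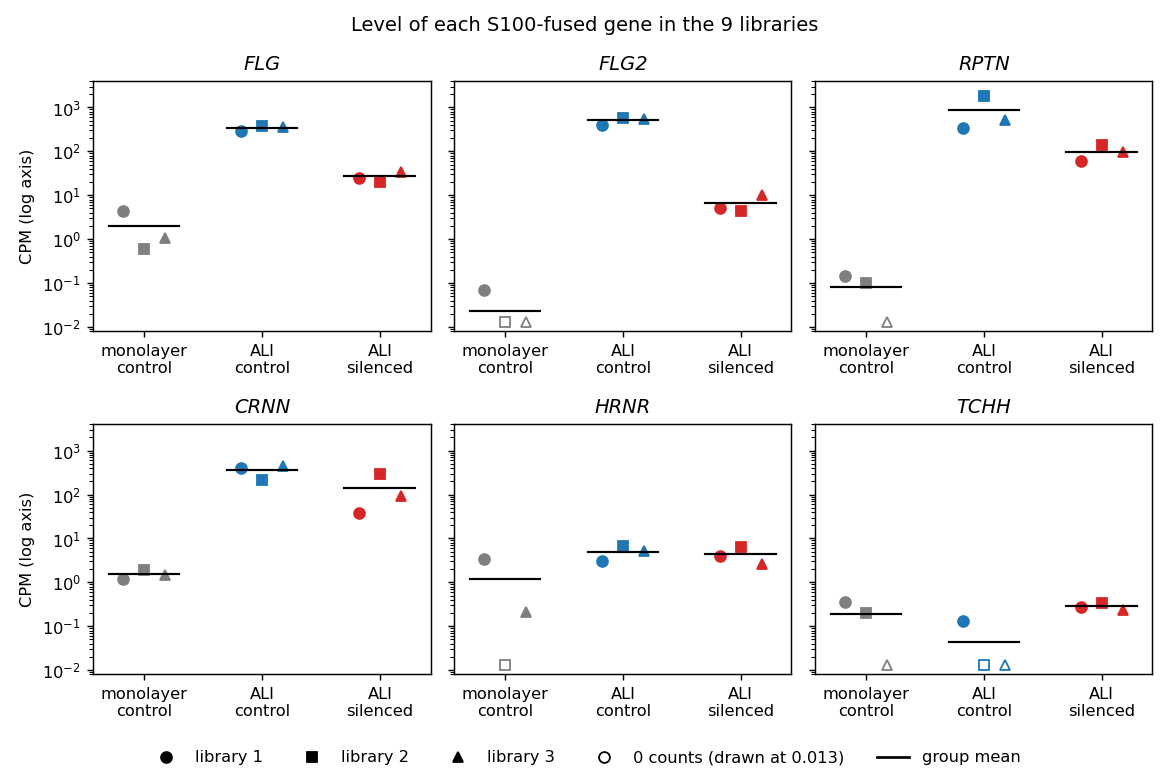
Each panel plots 1 gene, with CPM on a log axis and 1 point per library for the monolayer control, ALI control and ALI silenced groups. Bars mark group means and open points mark 0 counts. For FLG, FLG2 and RPTN the 3 groups do not overlap, and the share of all genes with such separation was not counted. CRNN overlaps between ALI groups through the libraries numbered 2, and HRNR and TCHH stay under 10 CPM.

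Of the 5 members tested, FLG, FLG2 and RPTN fell on silencing and 0 rose. Over all genes tested, 0.703% fell and 0.226% rose. The members were chosen with earlier results of these data known, so these shares are a background and not a test. The same 3 members fell by DESeq2 and by limma-voom, and at an unadjusted p under 0.05 in edgeR the counts were again 3 lower and 0 higher. Relative to the control mean, the silenced libraries 1, 2 and 3 held 7.43, 6.05 and 10.2% for FLG and 1.01, 0.865 and 2.03% for FLG2. For RPTN they held 6.99, 15.7 and 10.8%. CRNN spread far more, over 10.96, 82.8 and 26.1%, and HRNR stood at 79.96, 129.9 and 51.3%. In these values the tested members ranged from about the control level, for HRNR on few reads, down to about 1% of it. Without silenced library 1 or 3, 1 member, FLG2, passed, and without silenced library 2 the count was 4, with CRNN added.

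**Figure D2:**
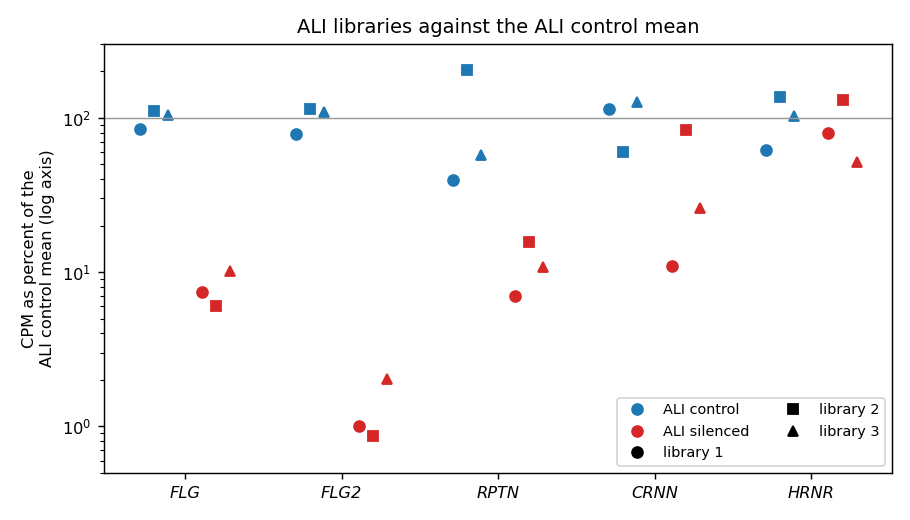
Points give the CPM of each ALI library as a percent of the ALI control mean of that gene, on a log axis, with blue for control and red for silenced libraries. The silenced libraries sit at 6.05 to 10.2% for FLG and 0.865 to 2.03% for FLG2, and spread from 10.96 to 82.8% for CRNN.

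With differentiation, the comparison of ALI controls with monolayers, 4 of the 5 tested members were higher and 0 lower. Over all genes tested, 20.3% were higher and 20.2% lower, so calls were common in this comparison. FLG was higher by 7.31 on the log2 scale (SE 0.63, edgeR adjusted p = 2.17e-05) and CRNN by 7.86 (SE 0.82, adjusted p = 7.08e-05). For FLG2 the controls held 12739 reads against 1 in the monolayers, a depth-scaled ratio of 17120 with a counting interval of 3073 to 676400 (adjusted p = 8.1e-07). For RPTN it was 21632 reads against 3, a ratio of 9692 with an interval of 3316 to 47000 (adjusted p = 1.19e-05). These 4 members passed in all 22 alternatives. HRNR did not pass, at 1.98 on the log2 scale (SE 0.96, adjusted p = 0.124). The HRNR value turned on monolayer library 1, which held 47 of the 49 monolayer reads: without it the log2 fold change was 5.45 (adjusted p = 0.00233). HRNR also passed by limma-voom (0.0263) and by limma on log2(RPKM + 0.1) (0.0415). Monolayer library 1 likewise had the highest FLG level of the monolayers, and without it the log2 fold change of FLG was 8.67 in place of 7.31. COL1A1 was at 184 CPM in that library and at 51.3 and 48.2 CPM in the other monolayers. PDGFRA, of the same fibroblast list, was at 0.354 against 0.607 and 0.638 CPM. Of the squamous markers, KRT16 was higher in that library (250 against 71.1 and 68.3 CPM) and KRT6B lower (94.5 against 181 and 190 CPM). The transcription factor GRHL1 stood at 3.33 against 0.809 and 1.28 CPM. What sets this library apart was not tested.

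The silenced ALI libraries were then set against the monolayers, a comparison that shares libraries with both others. Again 4 of 5 tested members were higher and 0 lower, while 15.8% of all genes tested were higher and 15.9% lower. FLG stood 3.64 higher on the log2 scale (SE 0.55, edgeR adjusted p = 0.000886) and CRNN 6.54 higher (SE 0.79, adjusted p = 0.000208). The ratio for FLG2 was 204 on 207 reads against 1 (counting interval 36.3 to 8118), and that for RPTN 1152 on 3497 reads against 3 (394 to 5588). All 4 passed in 22 of 22 alternatives. Without monolayer library 1 the FLG value was 5.00, and without silenced library 2 the CRNN value was 5.44. HRNR gave 1.79 (SE 0.95, adjusted p = 0.176), and 5.26 without monolayer library 1 (adjusted p = 0.00328). For all 4 genes the silenced cultures thus stayed above the undifferentiated level, including FLG2, which silencing lowered most among the members.

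**Figure D3:**
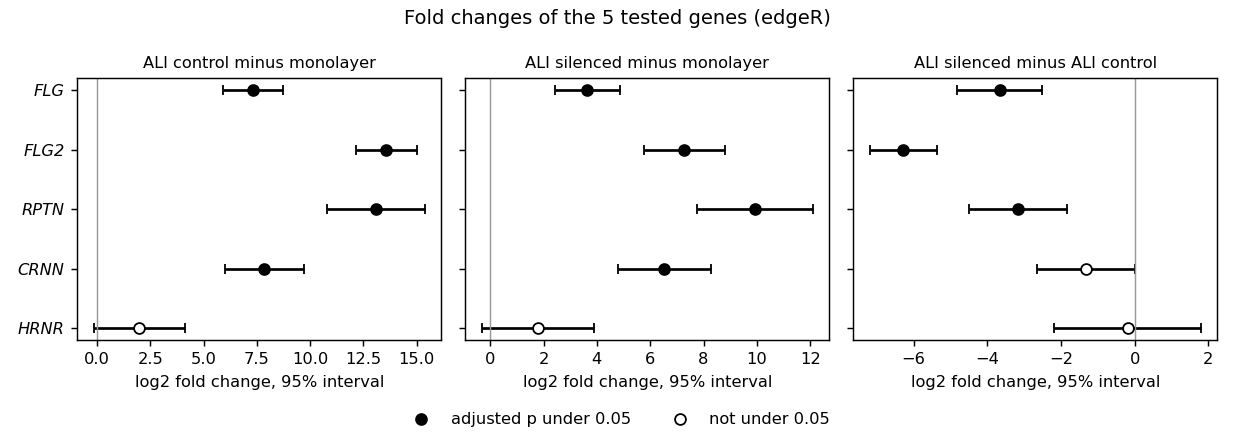
Points are edgeR log2 fold changes of the 5 tested genes and bars their 95% intervals, in the 3 comparisons, with open points where the adjusted p was not under 0.05. Fitted values of FLG2 and RPTN against the monolayers rest on 1 and 3 monolayer reads and depend on how the fit treats low counts. FLG, FLG2 and RPTN are filled in all panels, HRNR in none and CRNN in the 2 panels against the monolayers.

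Levels of different genes were compared per length, with the deposited RPKM (reads per kilobase of transcript, scaled to the reads of the library). In the ALI controls RPTN had 188 ± 155 RPKM and CRNN 150 ± 61.1 RPKM (SD, n = 3 each), which overlapped. They were followed by FLG2 at 44.0 ± 7.10, FLG at 21.1 ± 2.25, HRNR at 0.409 ± 0.130 and TCHH at 0.00535 ± 0.00927 RPKM. In the silenced libraries the order was CRNN at 64.8 ± 62.1, RPTN at 24.0 ± 9.78, FLG at 1.81 ± 0.479, FLG2 at 0.625 ± 0.303, HRNR at 0.394 ± 0.185 and TCHH at 0.0358 ± 0.00730 RPKM. FLG2 and FLG thus changed places, and FLG2 no longer stood apart from HRNR beyond their spread. In the monolayers CRNN led at 0.723 ± 0.171 RPKM, with FLG at 0.142 ± 0.144 and HRNR at 0.110 ± 0.173 RPKM. FLG2 lay above 93.6 to 95.5% of all 24672 genes in RPKM in the controls and above 50.3 to 55.2% in the silenced libraries.

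Summed over the 6 genes, RPKM was 311, 515 and 387 in the controls, 34.6, 172 and 68.5 in the silenced libraries and 1.27, 0.998 and 0.8002 in the monolayers. CRNN was the leading member in every library but control 2, where RPTN made up 71.1% of the sum. In silenced library 2 CRNN made up 78.6% of it, and that library had the highest sum of the silenced group. The ratio of FLG2 to FLG in RPKM was 1.94, 2.14 and 2.16 in the controls and 0.285, 0.299 and 0.415 in the silenced libraries. The ratio of CRNN to FLG was 9.37, 3.75 and 8.46 against 10.3, 95.5 and 17.9. Neither ratio overlapped between the groups, and each gave p = 0.1 in a two-sided exact permutation test, the smallest that 3 against 3 libraries allow (0.15 after Benjamini-Hochberg adjustment over 3 ratios). The third, RPTN to FLG, overlapped at 4.33, 17.0 and 5.12 against 8.74, 24.2 and 9.80 (exact permutation p = 0.4, adjusted 0.4). These tests were not planned in advance and other pairs of members were not tested, so the adjustment covers these 3 ratios only. The share of all gene pairs without overlap was not counted. Reads of the internal repeats of FLG, FLG2 and HRNR can fit more than 1 place. No source used here states how such reads were counted, which makes the split between these genes uncertain.

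**Figure D4:**
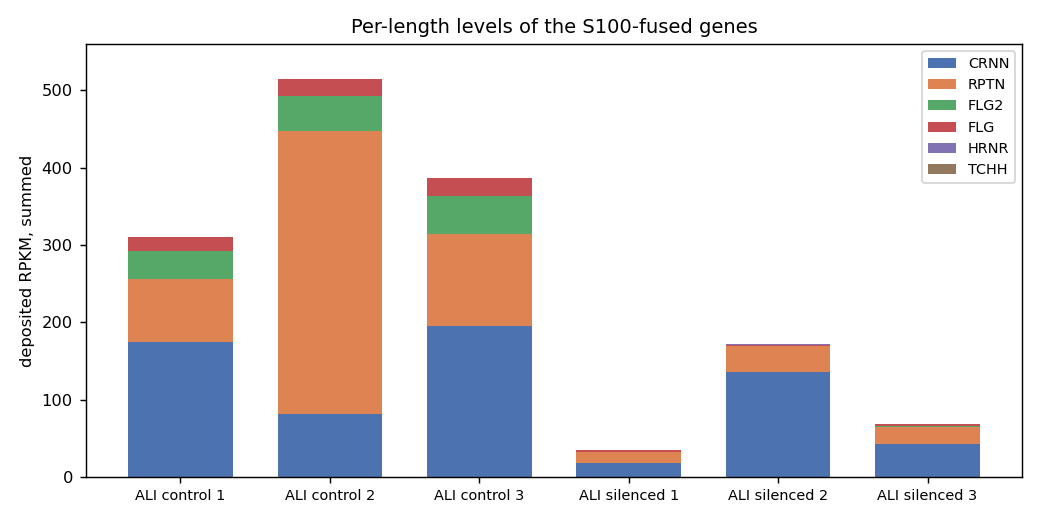
Stacked bars show the deposited RPKM of the 6 genes summed in each ALI library, starting at 0. The controls reach 311 to 515 and the silenced libraries 34.6 to 172, with RPTN the largest share in control 2 and CRNN in the others.

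Genes that process or break down filaggrin were followed as a list of 13, all tested. On silencing 3 fell and 0 rose, at a median log2 fold change of -0.60 beside 0.01 over all genes. ASPRV1, the protease that cuts profilaggrin between its repeats, stood at 53.0, 124 and 71.3 CPM against 0.934, 0.686 and 2.57 CPM in silenced libraries (log2 fold change -5.95, SE 0.57, edgeR adjusted p = 0.00246). CASP14, a caspase of terminal differentiation that acts on filaggrin, stood at 56.1, 51.9 and 76.8 CPM against 2.24, 4.26 and 3.74 CPM (-4.16, SE 0.33, adjusted p = 0.00111). HAL, which turns the histidine freed from filaggrin into urocanic acid, stood at 18.1, 17.3 and 15.95 CPM against 0.747, 0.412 and 0.468 CPM (-4.96, SE 0.51, adjusted p = 0.00246). None of these 3 overlapped between the ALI groups, and each passed in 22 of 22 alternatives. They were named because they passed on these libraries, so the lack of overlap follows from the choice and adds no support. ASPRV1 gave -5.19 without both ALI libraries numbered 2. The kallikrein KLK5, which SPINK5 inhibits, held 231, 300.5 and 319 CPM in the controls and 768, 788 and 774 CPM with silencing, without overlap. It did not pass (1.45, SE 0.32, adjusted p = 0.0658, 6 of 22 alternatives), nor did KLK7 (1.05, adjusted p = 0.167, 1 of 22) or SPINK5 (-2.38, adjusted p = 0.0593, 9 of 22). Without both ALI libraries numbered 2, KLK5 (1.48, 0.0244) and SPINK5 (-2.12, 0.000575) passed, and SPINK5 also passed without control library 2 (-1.71, 0.0482) or silenced library 2 (-2.81, 0.0418). At an unadjusted p under 0.05, 5 genes of the list were lower and 2 higher, and DESeq2 called 4 lower and 2 higher. Without both ALI libraries numbered 2, 5 were lower and 1 higher. With differentiation 8 of the 13 rose and 1 fell, and in the silenced libraries against the monolayers 7 rose and 1 fell. SPINK5 was higher with differentiation by 9.94 and KLK7 by 8.35 on the log2 scale, and in the silenced libraries KLK7 was higher than in the monolayers by 9.41, SPINK5 by 7.56 and KLK5 by 5.64. CASP14 and ASPRV1 also rose with differentiation, but rest on 1 and 2 monolayer reads, so no order among these genes is read from their fitted values. The ratio of CASP14 was 2094 with differentiation (counting interval 375 to 82770) and 117 in the silenced libraries (20.5 to 4644). That of ASPRV1 was 1382 with differentiation (382 to 11420). HAL in the silenced libraries overlapped the monolayers, which held 0.425, 0.303 and 0 CPM.

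Among 18 partners in the cornified envelope, 4 fell on silencing and 0 rose, with a median log2 fold change of -0.36. They were C1orf68 (-4.89), an envelope protein also called XP32, loricrin LOR (-4.07), the transglutaminase TGM5 (-2.77) and KPRP (-2.05), a proline-rich keratinocyte protein. LOR went from 53.6, 30.4 and 62.2 CPM to 2.24, 1.92 and 4.68 CPM (edgeR adjusted p = 0.00719). KPRP passed in 15 of 22 alternatives, with adjusted p up to 0.130. Leaving out control library 1 (0.0642) or 3 (0.0867), or silenced library 1 (0.129), 2 (0.051) or 3 (0.130), ended the call, as did the fit of only the 2 groups compared (0.0532) and the highest row per gene (0.0506). DESeq2 called 5 lower and limma-voom 4, each with 0 higher, and 7 were lower at an unadjusted p. Leaving out both ALI libraries numbered 2 gave 7 that fell. SPRR2A, SPRR2D and SPRR2E, small proline-rich crosslinking proteins, gave 0.09, -0.0035 and -0.32 on the log2 scale, all at an adjusted p of at least 0.747. With differentiation all 18 rose, and 17 stood above the monolayers in the silenced libraries, all but C1orf68 (-0.90, adjusted p = 0.361). KPRP and LOR had 0 reads in the monolayers. SPRR2E (11.38) and SPRR2D (10.83) were among the largest values with differentiation.

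Keratins, the filaments that filaggrin packs, were followed as 10 genes, of which 9 were tested. On silencing 3 fell and 0 rose, at a median of -0.60. KRT1, the main suprabasal type II keratin of epidermis, went from 3616, 888 and 3811 CPM to 68.7, 36.9 and 94.6 CPM (-5.38, edgeR adjusted p = 0.00593). Its partner KRT10 went from 5226, 917 and 4008 CPM to 145, 87.2 and 230.5 CPM (-4.46, adjusted p = 0.0124). KRT4, a keratin of esophageal upper layers, gave -1.98 (adjusted p = 0.0138). Control library 2 was the lowest control for KRT1 and KRT10, as it was for CRNN. Without silenced library 1, 1 keratin passed, since KRT10 (0.0765) and KRT4 (0.0815) were lost, and likewise without silenced library 3 (0.0516 and 0.0648). KRT4 was also lost without control library 1 (0.0634) or 3 (0.0503). At an unadjusted p 4 were lower, DESeq2 called 4 lower and limma-voom 3, each with 0 higher, and 5 fell without both ALI libraries numbered 2. With differentiation 8 rose and 0 fell, among them KRT1 (13.23, on 9 monolayer reads), KRT78 (11.03) and KRT4 (9.29). In the silenced libraries against the monolayers 8 rose, among them KRT78 (10.52) and KRT80 (8.02). KRT78 had 0, 2 and 3 reads in the monolayers, so its values against them rest on few reads. KRT2, a late epidermal keratin with 0 reads in the monolayers, gave -3.67 on silencing without passing (adjusted p = 0.0845, 4 of 22 alternatives). It passed without control library 2 (-4.15, 0.0228) and without both ALI libraries numbered 2 (-3.71, 0.000148).

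The soluble S100 proteins share the calcium-binding domain without the repeats. Of 14 tested of 16, 0 passed on silencing by edgeR, at a median of -0.09, with 3 lower and 0 higher at an unadjusted p. DESeq2 called 2 lower and limma-voom 0. Leaving out control library 2 gave 1 that fell, and leaving out both ALI libraries numbered 2 gave 2. S100A7, psoriasin, gave -0.79 (adjusted p = 0.590), S100A8 -1.01 (0.241), S100A12 -0.84 (0.667) and S100A7A -0.17 (0.948). S100A12 stood at 31.1, 151 and 64.1 CPM in the silenced libraries. Without silenced library 2 it gave -1.64 (0.0927), and without both ALI libraries numbered 2 it passed at -1.56 (0.0181). With differentiation 8 rose and 2 fell, with S100A7 at 11.74, S100A12 at 10.10 on 4 monolayer reads and S100A8 at 9.23 on the log2 scale. S100A7 had 1, 4 and 4 reads in the monolayers, so its values against them rest on few reads too. In the silenced libraries against the monolayers 7 rose and 1 fell, with S100A7 at 10.95, S100A12 at 9.26 and S100A8 at 8.22.

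Transcription factors of squamous differentiation, among them the factors whose core motifs were searched above, formed a list of 23, all tested. By edgeR 0 passed on silencing, at a median of 0.20, with 3 higher and 1 lower at an unadjusted p. DESeq2 and limma-voom called 1 higher each, and 2 passed without both ALI libraries numbered 2, 1 in each direction. With differentiation 12 rose and 3 fell, among them GRHL1 (7.25), OVOL1 (5.42) and ZNF750 (5.21). ELF3 rose too, on 1758 reads against 1 in the monolayers, a ratio of 2363 (counting interval 424 to 93390). In the silenced libraries against the monolayers 13 rose and 2 fell. GRHL1 (6.59), OVOL1 (5.71) and POU2F3 (4.81) were among those that rose, and ELF3 had a ratio of 2374 (426 to 93830). POU2F3 had 0, 4 and 2 reads in the monolayers, and its value ran from 1.32 to 5.81 over the alternatives. On silencing GRHL1 gave -0.66 (adjusted p = 0.667) and OVOL1 0.29 (0.863), and ELF3, at -0.10, passed in 1 of 22 alternatives, at -1.09 without both ALI libraries numbered 2 (0.0194).

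The members span 308 kb of a cluster that runs 1649 kb from S100A10 to S100A1 (hg19 chromosome 1, 151955386 to 153604513). It holds 56 other genes with a row, of which 46 were tested. On silencing 8 of these fell and 0 rose, at a median log2 fold change of -0.82 beside 0.01 over all genes. The 8 were C1orf68, LOR, KPRP and the late cornified envelope genes LCE1B (-3.86), LCE1C (-3.62), LCE1D (-3.58), LCE1E (-3.97) and LCE2B (-3.16), the LCE genes being named after their values were seen. Near-identical LCE copies can share reads. The number of calls moved widely, with 22 lower at an unadjusted p, 17 by DESeq2, 10 by limma-voom and 4 with only the 2 groups compared. It was 3 without silenced library 1 or 3, 14 without control library 2, and 22 lower with 1 higher without both ALI libraries numbered 2. HRNR lies between RPTN and FLG, which both fell, but its own interval is too wide to say whether it changed. With differentiation 41 of the 46 rose and 2 fell, and in the silenced libraries against the monolayers 39 rose and 1 fell. Several genes of the lists above lie in this cluster, so the counts share genes.

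**Figure D5:**
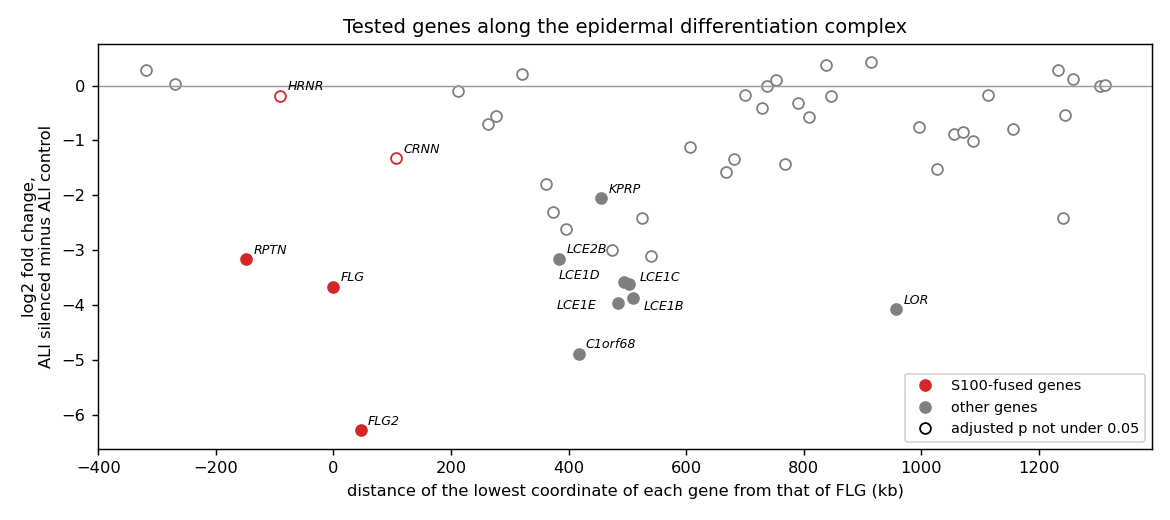
The x axis is the distance in kb from FLG along the cluster, between the lowest coordinates of the genes, and the y axis the edgeR log2 fold change on silencing. Red points are S100-fused genes, grey points other tested genes, and open points had an adjusted p not under 0.05. The filled points are FLG, FLG2, RPTN and 8 other genes, all below 0.

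Likeness of pattern was measured as the root-mean-square difference of log2 CPM over the 9 libraries after centring each gene on its own mean, among 11125 genes. It is a description, and the 9 libraries share the contrast between monolayer and ALI. Nearest to FLG were CASP14 (0.637), LOR (0.718) and SDR9C7 (0.743), a lipid dehydrogenase of the epidermal barrier. Nearest to FLG2 were KRTDAP (1.08), SERPINB3 (1.21) and KRT1 (1.24), which left FLG2 without a neighbour as close as those of the other members. RPTN lay nearest to KRT23 (0.749), SPINK5 (0.757) and PI3 (0.757), the protease inhibitor elafin. CRNN lay nearest to KLK12 (0.499), WFDC5 (0.512) and PGLYRP4 (0.522), the last of them in the same cluster. For HRNR they were UGT1A6 (0.525), whose exons are partly shared with other UGT1A genes, GPR1 (0.617) and GABRE (0.648). Among the monolayers each of these 3 was highest in library 1, as HRNR was. UGT1A6 stood there at 6.085 CPM, against 0.607 and 0.532 CPM in monolayer libraries 2 and 3. GPR1 stood at 3.68 against 0 and 0.425 CPM, and GABRE at 15.2 against 3.235 and 2.66 CPM. Between tested members the root-mean-square difference ran from 1.46 for FLG and CRNN to 3.66 for FLG2 and HRNR. Each member had non-member genes closer to it than any other member. These were the nearest of 11125 genes, set against only a few members, so that outcome was nearly fixed in advance. It does not say whether the members share a pattern. On silencing, SDR9C7 (-3.02), KRTDAP (-4.48) and SERPINB3 (-3.30) passed in all 22 alternatives. KRTDAP gave -3.84 without control library 2. KRT23 (-1.52, adjusted p = 0.352), PI3 (-1.81, 0.0757), KLK12 (-1.48, 0.214), WFDC5 (-1.61, 0.0631) and PGLYRP4 (-1.52, 0.240) did not pass, and UGT1A6, GPR1 and GABRE gave -0.11, -0.21 and -0.06. Without silenced library 2, KLK12 passed at -2.04 (0.0416), WFDC5 at -2.18 (0.00377) and PGLYRP4 at -2.32 (0.0175). These 3 genes were picked for their likeness to CRNN over the same libraries. That they share its dependence on silenced library 2 follows from the choice and adds no support. Without both ALI libraries numbered 2 they gave -2.24 (0.000563), -2.14 (0.00011) and -2.44 (0.000177), and KRT23 (-1.53, 0.00393) and PI3 (-1.73, 0.00313) passed as well. KRT23 gave -2.23 without silenced library 2 (0.0915) and -0.84 without control library 2 (0.636). The values of UGT1A6, GPR1 and GABRE stayed short of the threshold in these settings, and each turned in sign without control library 2 (0.79, 0.07 and 0.14). HRNR did so too, but these genes were picked for their likeness to HRNR over the same libraries. What they share with it follows from the choice and adds no support.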

How the data were processed

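Poly(A)-selected stranded RNA-seq was made from 9 EPC2 libraries, per the labels. Each deposited table held 29800 transcript rows with whole-number counts, not normalized, and RPKM values made by the authors. The submitters' processing notes name hg19, STAR 2.4.2a, Bowtie and MACS2 without roles; no source used here names the counter, its annotation or how it used strand. Rows of 1 symbol and chromosome were summed to 24672 genes; 511 rows name several genes. All deposited ALI tables carry a day 7 in their names, and some carry other library numbers. Whether that day counts from the start of air is not stated. The labels were followed.

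Counts were fitted with edgeR 4.0.16 in R 4.3.3 (TMM, filterByExpr on the 3 groups with a minimum count of 10, 12806 genes, robust quasi-likelihood F-test over all 9 libraries, 6 residual degrees of freedom). P-values were Benjamini-Hochberg adjusted over all genes, threshold 0.05. SE is the log2 fold change over the root of F, and 95% intervals use edgeR's total degrees of freedom. Counting intervals are exact and cover counting error only; a group of 3 libraries with 0 counts allows up to 3 counts. The 22 alternatives include DESeq2 1.42.0, limma 3.58.1 (voom, and log2 RPKM with a pseudocount of 1 or 0.1), other filters and scalings, and each library left out. The fits were tested on simulated data with the same spread for all genes and large planted changes. That does not test calls near the threshold in these data. Motifs were matched in RefSeq windows (GRCh38.p14), where all 6 members had an entry.

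The members, gene lists and alternatives were chosen with earlier results of these data known. The genes named are the members, SPINK7, TCHHL1 and FLG-AS1, up to 4 genes per list and comparison that passed with the largest change, and the 3 genes of at least 5 CPM nearest to each member in log2 CPM (prior count 2). Single genes of the cell type marker lists are named beside the sums they make up or beside members. They were singled out after their values were seen, as were the LCE genes. Some results of single genes are not reported here.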

Additional observations from a re-analysis of the deposited data

How the results depend on the processing

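Direction and side of the threshold held in 22 of 22 alternatives for FLG2 in all 3 comparisons, and for FLG, RPTN and CRNN against the monolayers. On silencing, the count of members that changed was 3, and 1 to 4 when 1 library was left out. The count of genes called on silencing was 119. It was 415 with the DESeq2 Wald test, 59 with only the 2 groups compared, 702 without both ALI libraries numbered 2, 76 with monolayer libraries 2 and 3 summed, and 29 to 243 with 1 library left out. For the silenced libraries against the monolayers it was 4058, then 6403 without both ALI libraries numbered 2, and 2621 to 5671 with 1 library left out. The cause was not tested. Libraries with the same number in the 2 ALI groups had correlated deviations of 0.495, 0.577 and -0.006. ALI pairs with different numbers ran from -0.691 (control 2 with silenced 1) to 0.637 (control 3 with silenced 1). The highest value was thus not that of a same-number pair. The labels do not say that a number marks a shared culture, so same-number libraries share only a number. With the replicate number as a block, 176 genes were called on silencing, 5132 with differentiation and 4001 in the third comparison, and 3, 4 and 4 members. RPTN gave adjusted p = 0.00398 on silencing with the block. Monolayer libraries 2 and 3 differed by 1.91 times the counting noise (chi-square per degree of freedom), against 16.8 to 160 for other pairs of a group, and were kept as 2 libraries. Depth limits TCHH, TCHHL1 and HRNR in all groups, and FLG2, RPTN, CASP14, ASPRV1, ELF3, LOR, KPRP and KRT2, among other genes, in the monolayers.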
